A study of Mus musculus with 10 samples.

Results

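The mouse mitochondrial genome carries 37 genes: 13 protein genes, 2 ribosomal RNAs (rRNAs) and 22 transfer RNAs (tRNAs). All 37 genes whose symbol starts with mt- were taken, of 55357 genes in the deposited count tables, by symbol alone. Mitochondrial DNA is transcribed from both strands as long precursor RNAs, in which tRNAs lie between most of the larger genes. The processing enzymes cut at the tRNA ends and so release the mRNAs and rRNAs between them. Most mitochondrial mRNAs then receive a short poly(A) tail, rRNAs receive very short ones, and mature tRNAs receive CCA instead. The 13 proteins are subunits of respiratory complexes I, III and IV and of ATP synthase, on which the heart relies for most of its ATP.

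The series measured poly(A) RNA in 6 heart and 4 macrophage libraries from mice on a C57BL/6 background. Every heart came from a Cd163-/- male, without the macrophage scavenger receptor for haptoglobin-haemoglobin complexes. By label, 3 hearts were treated with IL-10, a cytokine that restrains inflammation, and 3 with saline. The series text tells of recombinant mouse IL-10 given subcutaneously (50 µg/kg/day, first on day 0 and last on day 27) to mice that had undergone transverse aortic constriction, which raises the pressure load of the left ventricle, at 8 weeks of age. Surgery is not among the labels of individual hearts, and neither sham-operated nor wild-type hearts were analysed here. The macrophages were peritoneal cells recruited with thioglycolate, selected by adherence and exposed to 100 nM dexamethasone, a synthetic glucocorticoid, for 48 h, from Cd163-/- mice (n = 2) or wild-type mice (n = 2). The labels do not say whether replicates are separate animals or cultures, and p-values therefore reflect the spread between libraries, which may be technical. Libraries held 13.5 to 14.9 M counts in hearts and 16.7 to 18.6 M in macrophages (M for mega). Cd163 had 9 and 14 counts in Cd163-/- macrophages, against 352 and 205 counts in wild-type macrophages. In the hearts, all Cd163-/-, it had 37, 43 and 34 counts with IL-10 and 45, 47 and 57 with saline. The origin of these heart counts was not tested.

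Levels are given as CPM, the counts per 1000000 counts of a library after scaling between the libraries of a table. A gene is said to have risen or fallen where the adjusted p of edgeR's quasi-likelihood test, computed over all tested genes of a table, was under 0.05. Because the RNA was prepared as poly(A) RNA, the amount of an rRNA or tRNA and the share of it that carries a tail or remains in a precursor cannot be told apart. The library kit does not mark the strand, so RNA of the opposite strand cannot be told apart from that of the gene. This concerns all 37 genes, among them the 8 tRNAs and mt-Nd6 on the minus strand. In these bulk samples, fewer cells of a type and less RNA per cell cannot be told apart either.

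The tRNAs on which the results turn are shown as DNA letters of the tRNA strand, 5′ to 3′, from GENCODE M21 transcripts on GRCm38, with the anticodon in capitals. The first pair rose by the largest factors in IL-10 hearts, the second pair were the most abundant risen tRNAs, and the last pair did not rise. mt-Ti reads isoleucine codons and lies at chrM:3706-3774, plus strand. mt-Tq reads glutamine codons and lies at chrM:3772-3842, minus strand. mt-Tc reads cysteine codons and lies at chrM:5192-5257, minus strand. mt-Tp reads proline codons and lies at chrM:15356-15422, minus strand. mt-Th reads histidine codons and lies at chrM:11546-11612, plus strand. mt-Tg reads glycine codons and lies at chrM:9391-9458, plus strand.
mt-Ti: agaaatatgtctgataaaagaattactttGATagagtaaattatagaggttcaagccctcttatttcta
mt-Tq: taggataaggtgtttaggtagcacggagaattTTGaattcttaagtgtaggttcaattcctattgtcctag
mt-Tc: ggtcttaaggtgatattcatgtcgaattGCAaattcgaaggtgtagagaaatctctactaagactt
mt-Tp: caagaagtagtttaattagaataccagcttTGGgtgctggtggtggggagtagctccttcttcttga
mt-Th: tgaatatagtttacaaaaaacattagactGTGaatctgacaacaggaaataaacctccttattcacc
mt-Tg: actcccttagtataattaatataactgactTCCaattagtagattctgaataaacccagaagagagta

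In IL-10 hearts compared with saline hearts, both mitochondrial rRNAs and 10 tRNAs rose, and no mitochondrial mRNA rose or fell. Of the 37 genes, 31 passed the filter on low counts in hearts, and 12 rose and 0 fell. Over all 13718 genes tested, 6.86% rose and 6.7% fell, 13.6% in all. Among the 31, all 3 IL-10 hearts were above all 3 saline hearts for 14 genes and below them for none, while over all genes tested this held for 15.7% and 15.8%. The median log2 fold change was 0.48 over the 31 mitochondrial genes, 1.36 over the 2 rRNAs, 0.68 over the 16 tested tRNAs and 0.09 over the 13 mRNAs, against -0.01 over all genes tested. The 37 genes come from shared precursor RNAs, so the 12 rises are not independent measurements. The 6 genes that failed the filter were all tRNAs: mt-Tf, mt-Tv, mt-Ts1, mt-Td, mt-Tk and mt-Tt, with at most 16 counts over the 6 hearts.

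**Figure D1:**
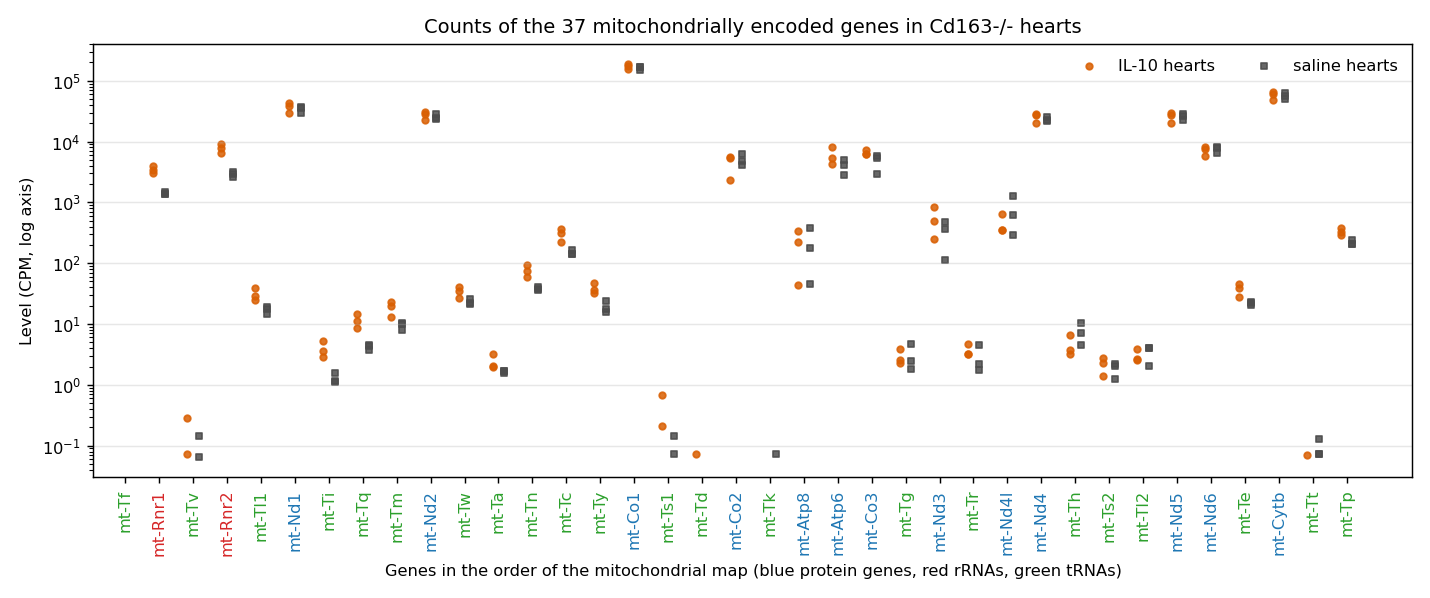
Level of each of the 37 genes in CPM (log axis), in map order, in the 3 IL-10 hearts (orange circles) and the 3 saline hearts (grey squares); libraries with 0 counts are not drawn. Both rRNAs and most tRNAs before mt-Co1 have all IL-10 hearts above all saline hearts, whereas protein genes overlap except mt-Co3.

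The rRNAs of the small and large subunit of the mitochondrial ribosome showed the smallest adjusted p-values of the 37 genes. mt-Rnr1, the 12S rRNA (ENSMUSG00000064337, chrM:70-1024), had 2993, 4015 and 3428 CPM in IL-10 hearts, against 1349.6, 1502 and 1362 CPM in saline hearts. Its lowest IL-10 heart stood well above its highest saline heart. The mean was 3478 ± 513 CPM in IL-10 hearts and 1405 ± 84.5 CPM in saline hearts (SD, n = 3 each), a 2.48-fold rise (log2 1.31, SE 0.14, adjusted p = 3.9e-05). mt-Rnr2, the 16S rRNA (ENSMUSG00000064339, chrM:1094-2675), had 6380.3, 9134 and 7696 CPM in IL-10 hearts, against 2625, 3144 and 2926 CPM in saline hearts. It rose 2.67-fold (log2 1.42, SE 0.16, adjusted p = 4.94e-05), with 7737 ± 1377 CPM in IL-10 hearts and 2898 ± 261 CPM in saline hearts. The pair lie next to each other on the map with mt-Tv between them, and per kilobase of gene mt-Rnr2 stood at 1.34 ± 0.0457 times mt-Rnr1 in IL-10 hearts and 1.24 ± 0.0633 times in saline hearts (exact two-sided permutation p = 0.2, n = 3 each).

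The rRNA rise was seen relative to the mitochondrial mRNAs as well. For each 1000 counts of the 13 mRNAs, IL-10 hearts had 29.5, 31.7 and 29.2 rRNA counts, against 10.6, 13.1 and 13.2 in saline hearts. The ratio of the means was 2.44, and the exact two-sided permutation p of 0.1 is the smallest that 3 against 3 libraries can give. For the 22 tRNAs together, IL-10 hearts had 2.31, 2.56 and 2.36 counts for each 1000 mRNA counts, against 1.42, 1.50 and 1.58 in saline hearts. That was a ratio of 1.61, again without overlap and with the smallest p of 0.1. With the sum of the 13 mRNAs in place of the library size, mt-Rnr1 kept a log2 rise of 1.22 and mt-Rnr2 of 1.32, with adjusted p = 1.12e-05 and 4e-06 by the same edgeR test.

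**Figure D2:**
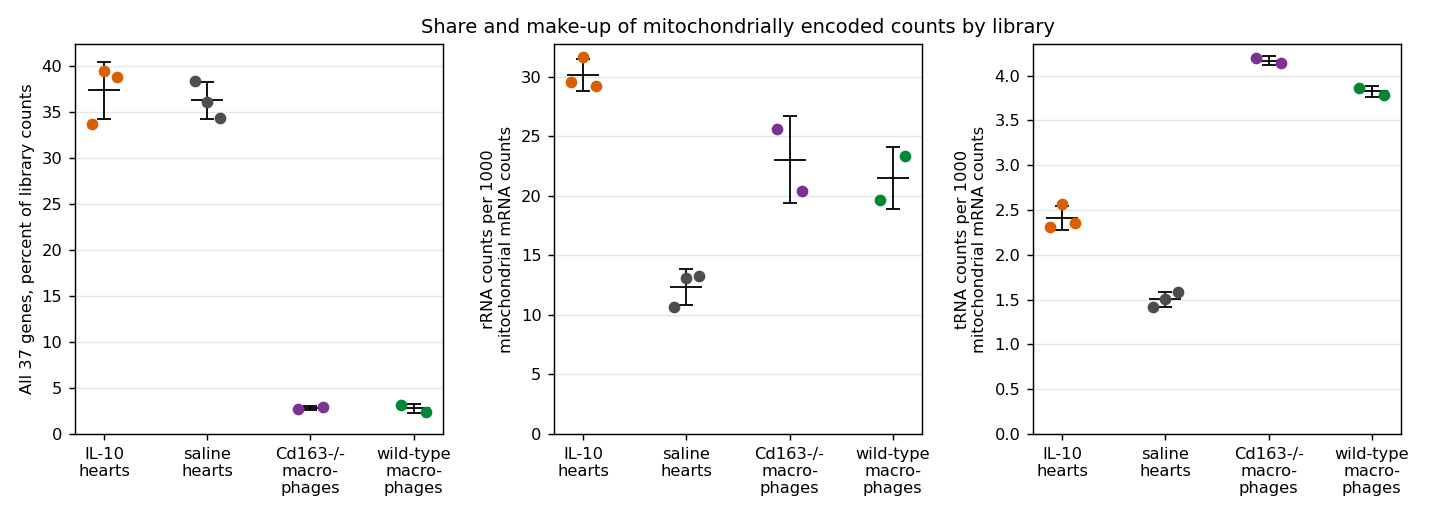
Left, counts of all 37 genes as percent of a library's counts; middle and right, rRNA and tRNA counts per 1000 mitochondrial mRNA counts; points are libraries, bars mean ± SD, with Cd163-/- groups and IL-10 drawn left of wild type and saline. Hearts overlap on the left, at 33.7% to 39.4% with IL-10 and 34.3% to 38.3% with saline, and separate in the middle and on the right.

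Transfer RNAs had far fewer counts than rRNAs, whose genes are longer. Per kilobase, saline hearts averaged 3279 CPM for mt-Tp and 2274 for mt-Tc, against 1471 for mt-Rnr1 and 1832 for mt-Rnr2. In IL-10 hearts these genes stood at 4939, 4506, 3642 and 4891 in the same order. Every other tRNA was lower than both rRNAs in both groups. More tRNAs rose before mt-Co1 in map order than after it. Of the 11 tRNAs before mt-Co1 in map order, 9 were tested and 8 rose. Of the 11 after it, 7 were tested, and mt-Te and mt-Tp rose. This split was made after the values were seen. The risen tRNAs averaged 3.90 to 331 CPM in IL-10 hearts and 1.27 to 219.7 CPM in saline hearts. The 6 that were tested and did not rise averaged 2.16 to 4.50 CPM in IL-10 hearts and 1.63 to 7.41 CPM in saline hearts. In IL-10 hearts these ranges overlapped through mt-Ti alone, at 3.90 CPM, and the next lowest risen tRNA, mt-Tq, averaged 11.6 CPM. In saline hearts mt-Ti and mt-Tq, at 1.27 and 4.22 CPM, were the only risen tRNAs under 7.41 CPM. Of the tested tRNAs, 4 of 9 on the plus strand and 6 of 7 on the minus strand rose. Whether place, strand or abundance has a part in which tRNAs passed the test was not tested.

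mt-Ti, the isoleucine tRNA, had the largest fold change and the fewest counts of the risen genes. It had 42, 49 and 74 counts (2.90, 3.60 and 5.20 CPM) in IL-10 hearts, against 15, 16 and 24 counts (1.10, 1.17 and 1.54 CPM) in saline hearts. The groups did not overlap, and the rise was 3.05-fold (log2 1.61, SE 0.32, adjusted p = 0.00358). Its annotation shares 2 bases with mt-Nd1 on one side and 3 bases with mt-Tq on the other. mt-Tq, the glutamine tRNA on the opposite strand, had 8.70, 14.7 and 11.3 CPM in IL-10 hearts, against 3.73, 4.52 and 4.42 CPM in saline hearts. It rose 2.73-fold (log2 1.45, SE 0.21, adjusted p = 0.00039). mt-Nd1, the neighbour on the other side and a complex I subunit, had 29432, 42865 and 37893 CPM in IL-10 hearts, against 36578, 35860.5 and 29996 CPM in saline hearts. Those groups overlapped (log2 0.11, SE 0.18, adjusted p = 0.753), and the difference between the changes of mt-Ti and mt-Nd1 was not tested.

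Downstream of mt-Tq lie the tRNAs for methionine and tryptophan, on either side of mt-Nd2. mt-Tm, which serves both the initiator and the elongator methionine codons, had 12.8, 22.6 and 19.7 CPM in IL-10 hearts, against 9.88, 7.95 and 10.6 CPM in saline hearts (log2 0.95, SE 0.19, adjusted p = 0.00372). mt-Tw, for tryptophan, had 26.7, 40.3 and 35.2 CPM in IL-10 hearts, against 21.4, 22.5 and 25.4 CPM in saline hearts (log2 0.56, SE 0.14, adjusted p = 0.0171). The groups came closest for mt-Tw, and it did not pass without the second IL-10 heart (log2 0.42, adjusted p = 0.113) or without the first saline heart (log2 0.50, adjusted p = 0.077). mt-Tl1, the leucine tRNA between mt-Rnr2 and mt-Nd1, had 24.6, 39.8 and 28.9 CPM in IL-10 hearts, against 14.8, 18.7 and 17.6 CPM in saline hearts (log2 0.87, SE 0.16, adjusted p = 0.0023). None of these 3 overlapped between the groups.

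Between mt-Nd2 and mt-Co1 lies a cluster of 4 minus-strand tRNAs, which flanks the origin of light-strand replication. mt-Tn, for asparagine, had 59.6, 92.5 and 73.6 CPM in IL-10 hearts, against 37.4, 36.7 and 41.0 CPM in saline hearts (log2 0.97, SE 0.14, adjusted p = 0.000373). mt-Tc, for cysteine, had 225, 358 and 309 CPM in IL-10 hearts, against 141, 165 and 144 CPM in saline hearts (log2 0.99, SE 0.15, adjusted p = 0.000501). The groups did not overlap for either, and mt-Tc rose 1.98-fold. mt-Ty, for tyrosine, had 32.5, 47.6 and 36.9 CPM in IL-10 hearts, against 15.9, 17.5 and 23.8 CPM in saline hearts (log2 1.03, SE 0.16, adjusted p = 0.000734). mt-Ta, for alanine, was the member of the cluster that did not pass, with 2.00, 3.16 and 1.97 CPM in IL-10 hearts and 1.54, 1.68 and 1.67 CPM in saline hearts (log2 0.54, SE 0.32, adjusted p = 0.294). Its groups did not overlap, but it had 170 counts over the 6 hearts, against 18973 for mt-Tc.

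mt-Te and mt-Tp, at the far end of the map on either side of mt-Cytb, were the other risen tRNAs. mt-Te, for glutamate, had 28.3, 44.8 and 38.5 CPM in IL-10 hearts, against 22.6, 20.6 and 22.2 CPM in saline hearts (log2 0.77, SE 0.15, adjusted p = 0.00266). mt-Tp, for proline, is the last gene before the control region and the most abundant tRNA per length. It had 295, 374 and 323 CPM in IL-10 hearts, against 244, 208 and 207 CPM in saline hearts (log2 0.59, SE 0.12, adjusted p = 0.00499). For each risen gene except mt-Ti the second IL-10 heart was the highest of the 6, so the rises share that library's order.

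**Figure D3:**
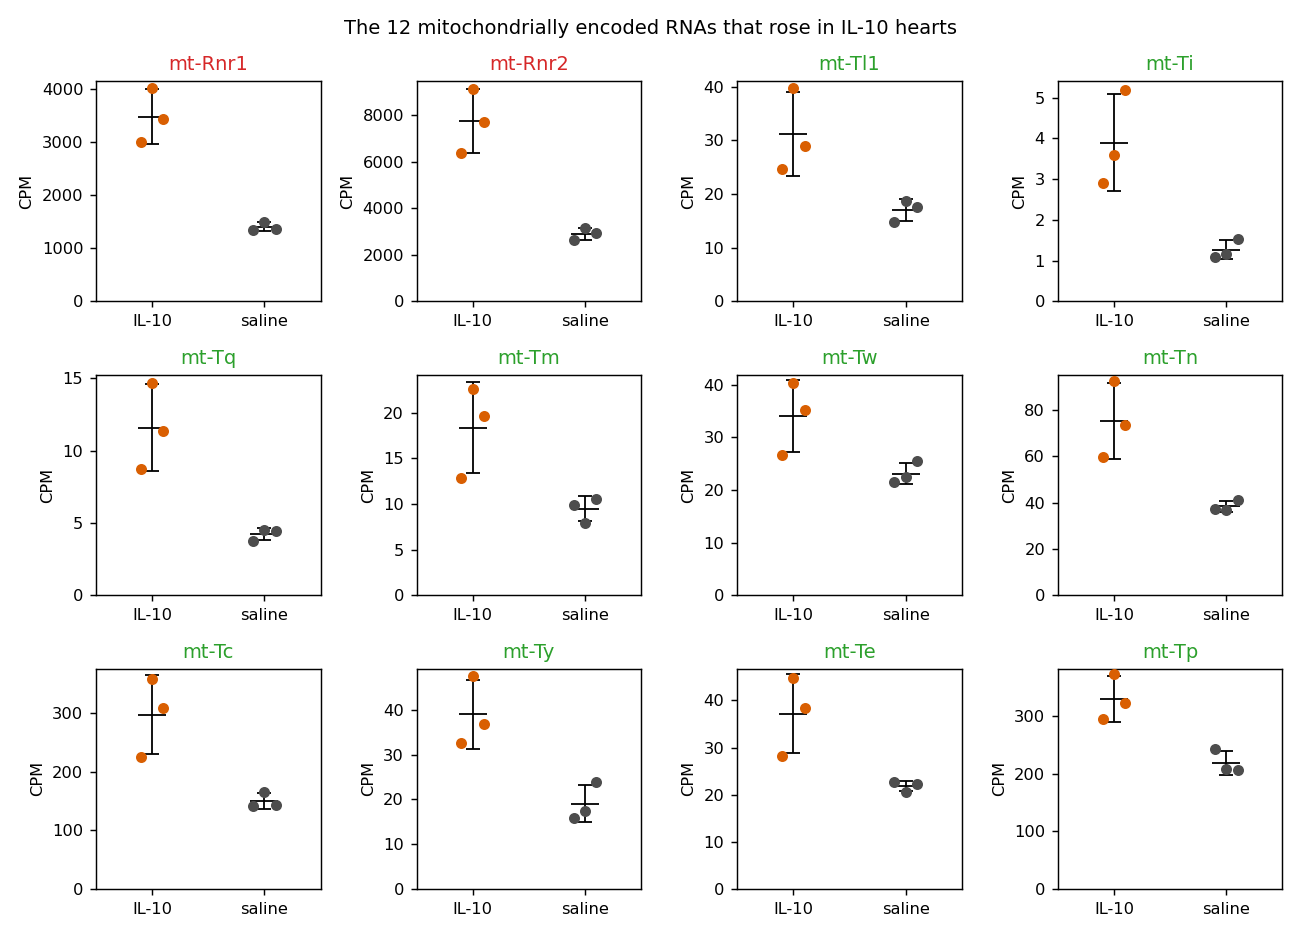
CPM of the 12 risen genes in each IL-10 heart (left, orange) and each saline heart (right, grey), with mean ± SD (n = 3 each) on axes that start at 0. Every panel has its lowest IL-10 heart above its highest saline heart, with the narrowest gap for mt-Tw, at 26.7 against 25.4 CPM.

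The 5 further tRNAs tested and not risen all lie between mt-Co3 and mt-Nd5. mt-Th, for histidine, had 3.18, 6.54 and 3.80 CPM in IL-10 hearts, against 7.17, 10.5 and 4.55 CPM in saline hearts. Its groups overlapped and it did not pass (log2 -0.72, SE 0.30, adjusted p = 0.128), though it did so without the third saline heart (log2 -0.97, adjusted p = 0.0465). The log2 fold changes of mt-Tg, for glycine, mt-Tr, for arginine, mt-Ts2, for serine, and mt-Tl2, for leucine, were -0.05, 0.39, 0.24 and -0.15, each with an SE of 0.31 to 0.35 and overlapping groups. Of the 6 untested tRNAs, mt-Tf had 0 counts in every heart and every macrophage library, which allows up to 0.192 to 0.220 CPM in a heart and 0.149 to 0.191 CPM in a macrophage library (3 counts, counting error only). The groups could not be compared for mt-Tv, mt-Ts1, mt-Td, mt-Tk and mt-Tt at counts this low.

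The protein genes held nearly all mitochondrial counts in hearts, and none rose or fell. The 37 genes took 33.7%, 39.4% and 38.8% of the counts in IL-10 hearts, against 38.3%, 36.0% and 34.3% in saline hearts. The means of 37.3% ± 3.13 with IL-10 and 36.2% ± 2.00 with saline differed by 1.09 percentage points, less than the spread between replicates (exact two-sided permutation p = 0.7, n = 3 each). Per kilobase, mt-Co1 ranked first in both groups, followed by mt-Cytb, mt-Nd1 and mt-Nd2. mt-Co1 made up 46.8% ± 2.29 of the mRNA counts in IL-10 hearts and 46.6% ± 1.36 in saline hearts (exact permutation p = 1, n = 3 each).

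Among complex IV subunits, mt-Co1, which carries the haem groups and a copper of the active site, had 156846, 190838 and 171719 CPM in IL-10 hearts, against 168547, 169033 and 151616 CPM in saline hearts. The groups overlapped (log2 0.09, SE 0.19, adjusted p = 0.804). mt-Co2, which takes electrons from cytochrome c, had a log2 fold change of -0.19 (SE 0.25, adjusted p = 0.669). mt-Co3 had 6245, 7276 and 6299.8 CPM in IL-10 hearts, against 5422, 5766 and 2981 CPM in saline hearts, and was the mRNA whose groups did not overlap (log2 0.48, SE 0.20, adjusted p = 0.123). mt-Cytb, the mitochondrially encoded subunit of complex III, had 48505, 65856 and 59623 CPM in IL-10 hearts, against 62587, 56245 and 50646 CPM in saline hearts. Its log2 fold change of 0.04 (SE 0.18, adjusted p = 0.918) turned to -0.01, -0.03 and -0.04 under other scalings.

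Complex I has 7 subunits among the mitochondrial genes, and the ATP synthase has mt-Atp6 and mt-Atp8. mt-Nd2 had 22191, 30262 and 27941 CPM in IL-10 hearts, against 27874, 24315 and 23455 CPM in saline hearts (log2 0.09, SE 0.17, adjusted p = 0.78). mt-Nd5 had 20563, 29002 and 27434 CPM in IL-10 hearts, against 28384, 22559.6 and 26649 CPM in saline hearts (log2 -0.01, SE 0.18, adjusted p = 0.977). mt-Nd6, the one mRNA on the minus strand, had 5776, 8066 and 7573 CPM in IL-10 hearts, against 8205, 6509 and 7751 CPM in saline hearts (log2 -0.07, SE 0.16, adjusted p = 0.821). These groups overlapped in each case. mt-Nd4 had a log2 fold change of 0.13, mt-Nd3 of 0.72 and mt-Nd4l of -0.67, with adjusted p = 0.659, 0.25 and 0.228. mt-Atp6, part of the proton channel, had 4303, 5444 and 8208 CPM in IL-10 hearts, against 4996, 4049 and 2817 CPM in saline hearts (log2 0.60, SE 0.22, adjusted p = 0.0894). Single libraries or the filter decided some of these calls. mt-Atp6 passed without the first IL-10 heart (log2 0.80, adjusted p = 0.031), and without the second saline heart mt-Co3 rose (log2 0.66, adjusted p = 0.0449) and mt-Nd4l fell (log2 -1.04, adjusted p = 0.014). With no filter on low counts, mt-Atp6, mt-Co3 and mt-Nd3 rose by edgeR's test, at log2 0.60, 0.49 and 0.72 (adjusted p = 0.000277, 0.00588 and 1.05e-06). mt-Nd4l and mt-Th fell, at log2 -0.66 and -0.71 (adjusted p = 1.15e-05 and 0.0169). These genes had themselves passed the filter, and 24565 genes were tested without it, against 13718 with it. Groups of mt-Nd3 and mt-Nd4l overlapped, and why the adjusted p-values moved was not tested. mt-Atp8 scattered from 43.3 to 336 CPM in IL-10 hearts and from 44.7 to 381 CPM in saline hearts (log2 -0.00, SE 0.57, adjusted p = 0.997).

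**Figure D4:**
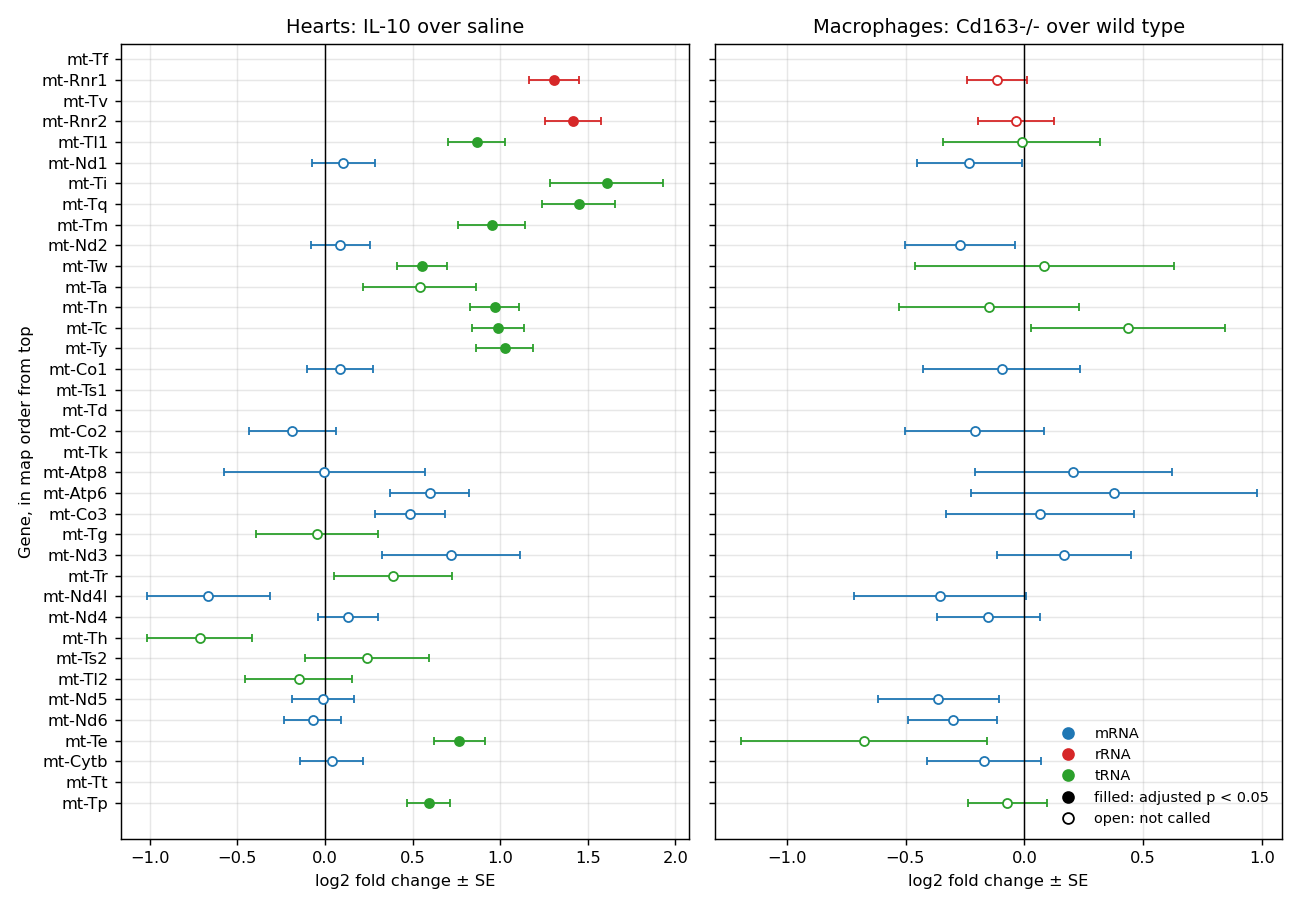
Log2 fold change ± SE of each tested gene in map order from the top, for IL-10 over saline hearts (left) and Cd163-/- over wild-type macrophages (right); filled symbols have an adjusted p under 0.05. In hearts the 12 filled symbols are rRNAs and tRNAs at 0.56 to 1.61, while in macrophages no symbol is filled.

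The nuclear genome holds near-identical copies of several mitochondrial protein genes, and what these copies did to the counts was not tested. For mt-Co2, mt-Atp6, mt-Co3, mt-Nd3 and mt-Nd4l, over 90% of bases, and up to 99.9% for mt-Co3, lie in annotated nuclear copies at 99% identity or more. mt-Nd4 follows with 63.6% and mt-Co1 with 31.3%, and the other protein genes, rRNAs and tRNAs have 0%. Only annotated transcripts and matches of at least 50 bases were counted, so 0% does not show that a gene lacks nuclear copies. mt-Atp8, at 0%, matches Gm10925 at 100% identity over 43 bases, and the nuclear genome between annotated genes was not searched. How reads with several placements were counted is not given in the sources used here, so reads of these genes and their copies cannot be told apart. The 5 copied genes together stood, per kilobase, at 15.5% ± 2.07 of the other protein genes in IL-10 hearts and 13.8% ± 1.34 in saline hearts. In macrophages they stood at 0.746% ± 0.142 in Cd163-/- cells and 0.633% ± 0.173 in wild-type cells. Their median coefficient of variation between replicates was 38.0% in IL-10 hearts and 32.2% in saline hearts, against 16.9% and 10.6% for the other 8 protein genes in the same groups. The ranges overlapped, at 8.78% to 56.1% and 20.6% to 68.5% for the copied genes. The other genes ranged from 9.84% to 73.6% and from 6.08% to 84.2%, with mt-Atp8 highest in both groups.

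A fixed list of 5 annotated nuclear copies was counted, which leaves out others such as Gm10222, a copy of mt-Nd4l, and Gm28439, a copy of mt-Nd4. Of the 5, 4 did not pass in hearts. Gm29216 rose (log2 0.98, SE 0.26, adjusted p = 0.0202) with overlapping counts of 25866, 16120 and 8679 in IL-10 hearts and 9685, 8628 and 7392 in saline hearts. The highest levels were those of Gm28437, at 1463 ± 783 CPM in IL-10 hearts and 1282 ± 347 CPM in saline hearts, and Gm10925, at 1408 ± 572 CPM in IL-10 hearts and 1613 ± 678 CPM in saline hearts. The counts of these 5 copies came to 29.1% ± 5.18 of those of the copied genes in IL-10 hearts and 31.0% ± 2.99 in saline hearts. In macrophages they came to 73.7% ± 15.1 in Cd163-/- cells and 76.0% ± 12.1 in wild-type cells. The 5 copies include Gm29216, which was the best match of no mitochondrial gene. These percents therefore do not set the copied genes against their own copies alone.

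**Figure D5:**
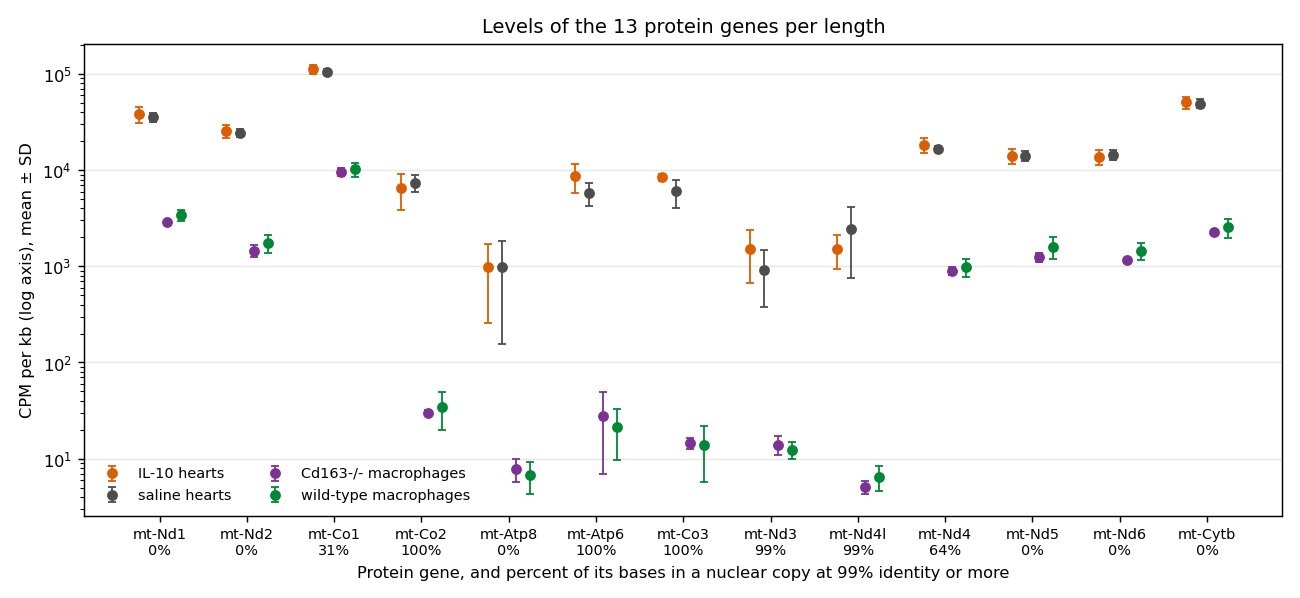
Mean level per kilobase ± SD (log axis) of the 13 protein genes in IL-10 and saline hearts (n = 3 each) and Cd163-/- and wild-type macrophages (n = 2 each), with the percent of bases found in nuclear copies under each name. The 5 copied genes and mt-Atp8 sit at or below 8789 CPM per kb in hearts and 34.7 in macrophages, and mt-Co1 is highest in all 4 groups.

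In Cd163-/- macrophages compared with wild-type macrophages, no mitochondrial gene rose or fell. Of the 37 genes, 21 passed the filter, and 0 rose and 0 fell by edgeR's test, with 0 at an unadjusted p under 0.05. DESeq2 and limma-voom also called 0. Over all 13861 genes tested, 13.1% rose and 13.3% fell, 26.4% in all. The median log2 fold change of the 21 genes was -0.12, with a range of -0.68 to 0.44, against 0.01 over all genes tested. With 2 libraries a group, a p over the threshold does not show that the groups were alike.

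The rRNAs differed little between the macrophage groups. mt-Rnr1 had 153 and 155 CPM in Cd163-/- macrophages, against 156 and 178 CPM in wild-type macrophages (log2 -0.12, SE 0.13, adjusted p = 0.531). mt-Rnr2 had 465 and 406 CPM in Cd163-/- macrophages, against 483 and 409.9 CPM in wild-type macrophages (log2 -0.04, SE 0.16, adjusted p = 0.888). The mt-Rnr1 groups did not overlap by a narrow margin. Over all tested genes, 34.1% had both Cd163-/- libraries below both wild-type libraries and 35.3% had them above. For each 1000 mitochondrial mRNA counts there were 25.6 and 20.4 rRNA counts in Cd163-/- macrophages and 19.6 and 23.4 in wild-type macrophages (exact permutation p = 0.667, n = 2 each, where 0.333 is the smallest possible).

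Only 6 tRNAs passed the filter in macrophages, mt-Tl1, mt-Tw, mt-Tn, mt-Tc, mt-Te and mt-Tp. mt-Tp had 84.6 and 101 CPM in Cd163-/- macrophages, against 109.7 and 85.3 CPM in wild-type macrophages (log2 -0.07, SE 0.17, adjusted p = 0.777). mt-Tc had 8.02 and 4.56 CPM in Cd163-/- macrophages, against 6.12 and 3.18 CPM in wild-type macrophages (log2 0.44, SE 0.41, adjusted p = 0.466). mt-Tn had 4.04 and 2.22 CPM in Cd163-/- macrophages, against 4.10 and 2.86 CPM in wild-type macrophages (log2 -0.15, SE 0.38, adjusted p = 0.794). mt-Tl1 had 1.89 and 1.44 CPM in Cd163-/- macrophages, against 1.78 and 1.59 CPM in wild-type macrophages (log2 -0.01, SE 0.33, adjusted p = 0.981). The groups overlapped for each of these 4 tRNAs. mt-Ti had 0 and 1 counts in Cd163-/- macrophages and 1 and 0 counts in wild-type macrophages, and mt-Tq had 1 and 2 counts in Cd163-/- macrophages and 1 and 1 counts in wild-type macrophages, under the limit of 3 counts. The tRNAs together came to 4.20 and 4.14 counts for each 1000 mRNA counts in Cd163-/- macrophages, against 3.87 and 3.78 in wild-type macrophages, without overlap and with the smallest possible exact permutation p of 0.333 (n = 2 each).

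Of the macrophage mRNAs, mt-Co1 had 13766 and 15709 CPM in Cd163-/- macrophages, against 17536 and 13971 CPM in wild-type macrophages (log2 -0.10, SE 0.33, adjusted p = 0.851). mt-Nd1 had 2676 and 2871 CPM in Cd163-/- macrophages, against 3576 and 2938 CPM in wild-type macrophages (log2 -0.23, SE 0.22, adjusted p = 0.472). mt-Nd6 had 597 and 622 CPM in Cd163-/- macrophages, against 856 and 646 CPM in wild-type macrophages (log2 -0.30, SE 0.19, adjusted p = 0.274). The groups overlapped for mt-Co1 and did not for mt-Nd1 and mt-Nd6. mt-Cytb had 2470.1 and 2700.2 CPM in Cd163-/- macrophages, against 3355 and 2453 CPM in wild-type macrophages (log2 -0.17, SE 0.24, adjusted p = 0.638). mt-Nd5 had 2092 and 2461 CPM in Cd163-/- macrophages, against 3443 and 2409 CPM in wild-type macrophages (log2 -0.36, SE 0.25, adjusted p = 0.331). The first wild-type library was the highest of the 4 for each of these mRNAs, and it also held the largest mitochondrial share. Without it mt-Co3 rose (log2 0.84, adjusted p = 0.046), and without the second wild-type library mt-Co2 and mt-Nd5 fell (log2 -0.60 for both, adjusted p = 0.0438 and 0.0479). The 37 genes took 2.68% and 2.94% of counts in Cd163-/- macrophages, against 3.12% and 2.43% in wild-type macrophages (exact permutation p = 1, n = 2 each).

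Hearts and macrophages are set side by side without a test, since tissue and preparation cannot be told apart. The mitochondrial share was 33.7% to 39.4% over the 6 hearts and 2.43% to 3.12% over the 4 macrophage libraries. The order of protein genes per kilobase began with mt-Co1 in both, followed by mt-Cytb and mt-Nd1 in hearts and by mt-Nd1 and mt-Cytb in macrophages. rRNA counts for each 1000 mRNA counts lay at 20.4 to 25.6 and 19.6 to 23.4 in Cd163-/- and wild-type macrophages, between the ranges of IL-10 hearts and saline hearts.

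Nuclear genes that act on mitochondrial RNA were counted in lists, beside 6.86% risen and 6.7% fallen over all genes tested in hearts. Of 18 tested genes for mitochondrial DNA transcription and maintenance, 2 rose and 0 fell in IL-10 hearts (median log2 0.19): Twnk, the replicative helicase (log2 0.51, SE 0.14, adjusted p = 0.0248), and Polg, the catalytic subunit of the mitochondrial DNA polymerase (log2 0.39, SE 0.12, adjusted p = 0.0408). Polrmt, the mitochondrial RNA polymerase, had a log2 fold change of 0.46 (SE 0.15, adjusted p = 0.0564). Of 28 genes for RNA processing, polyadenylation and decay, 2 rose and 1 fell (median log2 0.03). Fastk, a mitochondrial RNA-binding protein, rose by 0.51 (SE 0.11, adjusted p = 0.00711) and Hsd17b10, a subunit of mitochondrial RNase P, by 0.35 (SE 0.11, adjusted p = 0.0416). Rexo2, an exonuclease of short RNAs, fell by 0.39 on the log2 scale (SE 0.12, adjusted p = 0.0342).

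Genes for later steps were counted in the same way in IL-10 hearts, again beside 6.86% risen and 6.7% fallen over all genes tested. Of 19 tRNA modification genes 1 rose, Trmt5, a tRNA methyltransferase (log2 0.53, SE 0.15, adjusted p = 0.0318). Of 22 mitochondrial aminoacyl-tRNA synthetase genes and related amidotransferase genes 0 passed by edgeR's test, with 8 at an unadjusted p under 0.05. Iars2 and Cars2, which charge the isoleucine and cysteine tRNAs, had log2 fold changes of 0.14 and 0.09 (SE 0.11 and 0.12). Of 12 translation factor genes 0 passed, with 1 at an unadjusted p under 0.05. Of 76 mitochondrial ribosomal protein genes 2 rose, Mrpl9 (log2 0.41) and Mrps24 (log2 0.48), and Mrps18b fell by 0.76, so that the list's median was 0.07 beside the rRNA median of 1.36. Of 11 biogenesis regulators 1 rose, Esrrg, a nuclear receptor of cardiac energy genes (log2 0.40, SE 0.12, adjusted p = 0.0435).

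The partner subunits of the same complexes are encoded by nuclear genes. Of 76 nuclear subunit genes of complexes I, III, IV and V tested in hearts, 23 rose and 1 fell with IL-10 (median log2 0.34), while 6.86% of all genes tested rose and 6.7% fell. The smallest p-values were those of Cox7a1, the complex IV isoform of heart and muscle (log2 0.89, SE 0.14, adjusted p = 0.000532), Cox8b (log2 0.84, SE 0.16, adjusted p = 0.00261) and Cox6c (log2 0.61, SE 0.13, adjusted p = 0.0043). The mitochondrially encoded mRNAs of these complexes had 0 of 13 past the threshold, and the difference between these counts was not tested.

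The same nuclear lists were counted in Cd163-/- macrophages, where 13.1% of all genes tested rose and 13.3% fell. Of 28 genes for RNA processing and decay 7 fell and 0 rose (median log2 -0.37), with Fastkd1 at -0.86, the helicase gene Supv3l1 at -0.72 and Tbrg4 at -0.54 (adjusted p = 0.0149, 0.0169 and 0.029). Of 76 ribosomal protein genes 12 fell and 0 rose, with Mrpl52 at -1.16, Mrpl39 at -0.83 and Mrpl12 at -0.68. Of 19 tRNA modification genes 4 fell and 0 rose, with Yrdc at -0.89, Trmt5 at -0.66 and Nsun2 at -0.56. Of 7 tested biogenesis regulators 3 fell, Esrra by 0.79, Pprc1 by 0.98 and Ppargc1b by 1.50 on the log2 scale. Of 12 translation factor genes 1 fell, Gfm1 (log2 -0.50), and of 74 nuclear subunit genes 2 fell, Cyc1 (log2 -0.46) and Cox7a2 (log2 -0.55). Of 22 synthetase genes 1 rose, Vars2 (log2 0.84, adjusted p = 0.036), and of 19 transcription and maintenance genes 0 passed, with 3 at an unadjusted p under 0.05.

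Marker lists were summed beside these results. Over all genes tested, 6.86% rose and 6.7% fell in hearts, and 13.1% rose and 13.3% fell in macrophages. The 8 cardiomyocyte markers had 38869 to 45717 CPM in IL-10 hearts and 42082 to 49932 CPM in saline hearts, none at 0, with 1 risen and 1 fallen. All 5 red blood cell markers fell, with 300.4 to 548 CPM in IL-10 hearts and 582 to 1189 CPM in saline hearts. The 3 smooth muscle markers summed to 67.7 to 94.1 CPM in IL-10 hearts and 124 to 196 CPM in saline hearts, with 1 fallen. In hearts, 1 of 5 fibroblast markers rose and 2 fell. Of 7 macrophage markers 1 fell, of 4 endothelial markers 1 fell, and the 1 tested skeletal muscle marker fell. The neutrophil, mesothelial and brown fat lists had 0 risen and 0 fallen in hearts, and no B cell or T cell marker was tested there. Nuclear RNAs usually made without a poly(A) tail, a list of 1953 genes added after the data were seen, summed to 7.03 to 9.69 CPM in IL-10 hearts and 10.9 to 13.6 CPM in saline hearts. Those sums rest on 100 to 132 counts in IL-10 hearts and 150 to 212 counts in saline hearts, and 0 of the list's genes passed the filter there. In macrophages the same list summed to 16.0 to 16.1 CPM in Cd163-/- cells and 27.8 to 28.1 CPM in wild-type cells, with 2 of 4 tested genes fallen. The 7 macrophage markers had 20759 to 21713 CPM in Cd163-/- cells and 23715 to 28053 CPM in wild-type cells, none at 0, with 0 risen and 1 fallen. The 5 fibroblast markers had 2959 to 3394 CPM in Cd163-/- cells and 1429 to 2184 CPM in wild-type cells, with 3 risen and 1 fallen. The 3 mesothelial markers had 161 to 206 CPM in Cd163-/- cells and 50.4 to 84.2 CPM in wild-type cells, with 2 risen. The 3 smooth muscle markers had 409 to 697 CPM in Cd163-/- cells and 172 to 221 CPM in wild-type cells, with 2 risen. The 3 neutrophil markers had 2.22 to 2.79 CPM in Cd163-/- cells and 8.61 to 20.9 CPM in wild-type cells, with 1 fallen. Their part in the results on mitochondrial and listed nuclear genes was not tested.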

How the data were processed

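Gene counts were deposited as 1 table for 6 hearts and 1 for 4 macrophage libraries; all values were whole numbers and 0 columns lacked a sample. Libraries were made with the NEBNext Ultra RNA kit, per the labels' protocols, whose text names livers as the source of the RNA. Per the submitters' processing notes, the authors aligned reads with HISAT2 2.2.1 and counted them with featureCounts, version not given, to make the deposited counts. GRCm39 and mm10 are both listed, which leaves the build used for the counts unknown; coordinates and names (52081 of 55357 identifiers) are those of GENCODE M21 on GRCm38.

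Each table was fitted alone in R 4.3.3 with edgeR 4.0.16: filterByExpr (minimum count 10, minimum total 15), TMM scaling and the quasi-likelihood test, with Benjamini-Hochberg adjustment over all tested genes and a threshold of 0.05. CPM use TMM-scaled library sizes, which rest on the counts of all genes that passed the filter, mitochondrial genes included. SE was taken as the size of a log2 fold change over the square root of its F statistic. Shares and ratios were compared by exact two-sided permutation tests. Nuclear copies were sought with blastn 2.17.0 among GENCODE M21 transcripts (99% identity, at least 50 bases); a gene counted as copied at 90% of its bases.

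Alternatives were other scalings, other filters, DESeq2 1.42.0, limma-voom (limma 3.58.1), other denominators for the share, the replicate number as a block, and leaving out each library. Deviations of same-numbered libraries correlated at -0.179, 0.0421 and 0.0034 in hearts and -0.113 in macrophages. Those of differently numbered hearts correlated at -0.124 to 0.134. With 2 libraries a group, the macrophage value can only change its sign between pairings, so it cannot show whether libraries were paired. Replicates differed beyond sampling noise (chi-square per gene 10.7 to 53). The fits were tested on simulated data.

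The 37 genes and all gene lists were chosen with earlier results of these data known. By rule, per-library values are printed for every risen or fallen gene, the rRNAs, the 4 most abundant mRNAs and tRNAs, mt-Nd6, and mt-Ti with its neighbours. Of each nuclear list, up to 3 genes with the smallest p are named. Values of mt-Co3, mt-Atp6, mt-Th, mt-Ta, mt-Nd5, Iars2, Cars2 and Gm29216 were added after they were seen.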

Additional observations from a re-analysis of the deposited data

How the results depend on the processing

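The count of 12 mitochondrial genes risen in IL-10 hearts was 10 with the mRNA sum as library size (without mt-Tw, log2 0.46, adjusted p = 0.144, and mt-Tp, log2 0.51, adjusted p = 0.0626), 15 without a filter, 13 with the replicate block (mt-Co3 in addition, log2 0.54, adjusted p = 0.0497) and 11 to 13 when each library was left out. The count of fallen genes, 0, was 2 without a filter (mt-Nd4l and mt-Th) and 0 to 1 when each library was left out (mt-Nd4l without the second saline heart, mt-Th without the third). Of 192 alternative values of the risen genes, 188 kept their direction and stayed past the threshold and 4 lost it, 3 of mt-Tw and 1 of mt-Tp. In macrophages 0 to 1 genes rose and 0 to 2 fell when each library was left out: mt-Co3 rose without the first wild-type library, and mt-Co2 and mt-Nd5 fell without the second. A replicate block gave 0 and 0 there, and so did a block on crossed numbers, added after the data were seen. Within replicate numbers the share differed by 1.09 points in hearts (exact permutation p = 1, n = 3 each) and 0.0312 in macrophages; when each library was left out, it differed by 0.0323 to 2.89 and by -0.314 to 0.377.

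Among genes that did not pass, the sign of the log2 fold change turned in hearts for mt-Atp8 (0.0301) and mt-Tg (0.041) under limma-voom, for mt-Tg (0.00136) under the replicate block and for mt-Cytb under upper-quartile scaling (-0.0116), library size alone (-0.0297) and the mRNA sum (-0.0449). In macrophages it turned under library size alone for mt-Rnr1 (0.0605), mt-Rnr2 (0.143), mt-Tl1 (0.166), mt-Tn (0.0314), mt-Co1 (0.0789), mt-Nd4 (0.024), mt-Cytb (0.00761) and mt-Tp (0.103). Under the mRNA sum the same genes stood at 0.0159, 0.13, 0.156, 0.0467, 0.0626, 0.0142, 0.00059 and 0.0879. Under upper-quartile scaling mt-Rnr2 (0.0774), mt-Tl1 (0.101), mt-Co1 (0.016) and mt-Tp (0.0406) turned. These settings moved the median of all macrophage genes to 0.19, 0.16 and 0.13. Of all genes, 2665 rose and 1220 fell in macrophages with library size alone, 2052 and 1001 with the mRNA sum and 2310 and 1403 with upper quartiles, against 1817 and 1846. In hearts the same settings gave 549 and 993, 258 and 672, and 716 and 1120, against 941 and 919. The cause was not tested.

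When each library was left out, values in hearts ranged from -0.0184 to 0.251 for mt-Nd1, -0.00641 to 0.215 for mt-Nd2, -0.38 to 0.13 for mt-Co2, -0.59 to 0.85 for mt-Atp8, -0.31 to 0.43 for mt-Tg, -1.04 to 0.016 for mt-Nd4l, -0.41 to 0.000286 for mt-Tl2, -0.11 to 0.13 for mt-Nd5, -0.164 to 0.071 for mt-Nd6 and -0.0613 to 0.16 for mt-Cytb. In macrophages they ranged from -0.153 to 0.0856 for mt-Rnr2, -0.22 to 0.16 for mt-Tl1, -0.42 to 0.89 for mt-Tw, -0.65 to 0.20 for mt-Tn, -0.0315 to 0.985 for mt-Tc, -0.255 to 0.0753 for mt-Co1, -0.60 to 0.31 for mt-Co2, -0.12 to 0.64 for mt-Atp8, -0.73 to 1.08 for mt-Atp6, -0.44 to 0.84 for mt-Co3, -0.0891 to 0.39 for mt-Nd3, -0.356 to 0.07998 for mt-Nd4, -0.381 to 0.0738 for mt-Cytb and -0.25 to 0.12 for mt-Tp. Where a macrophage group was left with 1 library, its spread was taken from the other group. Low counts limit the tRNAs: 6 in hearts and 16 in macrophages did not pass the filter, and the cause of their low counts was not tested.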
